A study of Mus musculus with 24 samples.

Results

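Retnlg+ Siglecf- neutrophils were examined in single-cell RNA-Seq of Panc02 tumors, which were grown under the skin of male WT C57BL/6 mice, 6 to 7 weeks old at implantation, and harvested on day 38. Panc02 is a murine pancreatic cancer line. PancVAX, a neoantigen peptide vaccine, was given at 50 μg per peptide on days 12 and 19, with AddaVax and a STING agonist as adjuvants, so its effect cannot be told apart from that of the adjuvants. Anti-CTLA-4 was given at 100 μg on days 15 and 22, and Anti-PD-1 at 100 μg repeatedly from day 12. These days follow the paper's methods. A figure legend of the paper gives day 19 for the second Anti-CTLA-4 dose and an earlier day of harvest. The 8 treatments were Isotype control, each agent alone, each pair of agents, and all 3 together, with PBS or isotype antibodies in place of an agent not given. Tumor cells of mice with the same treatment were pooled, and each treatment gave a library from the whole dissociated tumor and a library enriched for immune cells on Percoll. Thus, there were 16 RNA libraries, and each agent was present in 4 treatments and absent from 4. The preparations were sequenced as separate batches, so that preparation and sequencing batch cannot be told apart.

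A cell entered the group if it had at least 1 UMI (a unique molecular identifier, which counts a captured RNA molecule) of *Retnlg*, no UMI of *Siglecf*, at least 5 UMIs of *S100a8* and *S100a9* together, no UMI of *Cd3d*, *Cd3e* or *Cd3g*, and *C1qa*, *C1qb* and *C1qc* at under 10 per 10000 UMIs. Cells also needed at least 500 UMIs and 200 genes, with mitochondrial genes under 10% of UMIs. Of 144994 barcodes, 132845 passed the limits on depth and mitochondrial share, 8344 of these passed the *S100a8*/*S100a9*, *C1q* and *Cd3* conditions (the neutrophil gate), and 1465 were Retnlg+ Siglecf-. The gate also held 1967 Siglecf+ cells, of which 156 had *Retnlg* as well, and 4912 cells with neither gene. The working name for the cells, recently arrived neutrophils, refers to a history that RNA counts from a single day do not measure, and the cells are named here by their genes.

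Neutrophils are short-lived granulocytes that leave the bone marrow already carrying granules of antimicrobial protein. They enter tissue from blood with the help of adhesion molecules and the chemokine receptor CXCR2. *S100a8* and *S100a9* encode the subunits of calprotectin, the main cytosolic protein of neutrophils. Among the markers of these cells, *Retnlg* encodes a resistin-like secreted protein of myeloid cells, *Slpi* an inhibitor of neutrophil serine proteases, *Lrg1* a secreted leucine-rich glycoprotein and *Asprv1* a retroviral-like aspartic protease. In mouse tumors, neutrophils that display Siglec-F have been described as long-lived and tumor-adapted, which is why Siglecf+ cells serve as the comparison.

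The 250 bases upstream of the start of each of the 4 markers other than *S100a8* and *S100a9* are shown because these genes set the cells apart within the gate. The sequences are from RefSeq (build GRCm38.p6), read 5′ to 3′ on the gene's strand. Capitals mark matches on either strand to the C/EBP motif TTGCNNAA or the ETS core AGGAAG, which are recognized by transcription factor families active in granulocytes. Letters alone do not show that a factor binds.
Retnlg, chr16:48872358-48872607, plus strand: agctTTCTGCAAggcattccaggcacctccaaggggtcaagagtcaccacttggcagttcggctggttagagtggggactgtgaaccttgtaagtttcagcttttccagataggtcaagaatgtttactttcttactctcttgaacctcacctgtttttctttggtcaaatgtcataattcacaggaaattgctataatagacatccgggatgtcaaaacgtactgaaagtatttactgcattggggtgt
Slpi, chr2:164356508-164356757, minus strand: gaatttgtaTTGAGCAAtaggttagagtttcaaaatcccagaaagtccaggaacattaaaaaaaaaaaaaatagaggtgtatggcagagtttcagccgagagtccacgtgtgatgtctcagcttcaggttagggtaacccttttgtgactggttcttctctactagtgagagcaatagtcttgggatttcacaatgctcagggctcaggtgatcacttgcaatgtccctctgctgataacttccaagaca
Lrg1, chr17:56121947-56122196, minus strand: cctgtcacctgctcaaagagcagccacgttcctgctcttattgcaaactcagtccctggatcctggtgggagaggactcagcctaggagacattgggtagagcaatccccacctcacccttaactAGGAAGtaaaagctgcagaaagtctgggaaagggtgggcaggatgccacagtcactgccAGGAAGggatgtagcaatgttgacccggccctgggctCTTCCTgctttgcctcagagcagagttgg
Asprv1, chr6:86627924-86628173, plus strand: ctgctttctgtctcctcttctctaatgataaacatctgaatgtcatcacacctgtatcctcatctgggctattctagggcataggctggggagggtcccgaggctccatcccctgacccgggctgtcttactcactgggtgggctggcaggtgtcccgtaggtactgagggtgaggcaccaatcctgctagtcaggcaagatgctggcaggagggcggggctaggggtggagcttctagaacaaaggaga
*Retnlg* and *Slpi* each had 1 C/EBP match, *Lrg1* had 3 ETS matches, and *Asprv1* had none of either. Among 32851 RefSeq windows of the same length upstream of starts, 9.56% held the C/EBP letters and 29.5% the ETS letters.

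The 16 libraries held 5743 to 11979 barcodes and 77132398 to 176233225 UMIs each. Cells of any type past the limits had a median of 8890 UMIs, whereas Retnlg+ Siglecf- cells had a median of 1328 UMIs and 573 genes. Barcodes carry a library number, and this was matched to the number that opens each sample's description in the labels. The same barcode sequence occurred in 2 or more libraries for 12150 of 132035 sequences, with 0.856% to 2.43% of the smaller library shared by a pair of libraries, and 2 sequences were Retnlg+ Siglecf- in more than 1 library. Each library is a pool of mice, so that p-values here measure differences between pools and not between mice. All counting intervals cover counting error only.

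The cells were chosen by their measured UMIs of *Retnlg*, *S100a8*, *S100a9*, *Siglecf*, *C1q* and *Cd3*, whose levels are given as description. The median cell had 3 *Retnlg* UMIs and 77 UMIs of *S100a8* and *S100a9*, which made up 5.86% of its UMIs. A single *Retnlg* UMI was present in 454 cells, 2 to 4 in 490 and 5 or more in 521. Just inside the *S100a8*/*S100a9* limit, 18 cells had exactly 5 UMIs, and just outside it 21 cells with *Retnlg* had exactly 4. In all, 708 of 2173 Retnlg+ cells were left out, among them 101 that failed only on *Cd3*, 218 that failed only on *C1q* and 107 with a single *Siglecf* UMI. For comparison, 0.345% of T cells (3 or more *Cd3* UMIs, median 4198 UMIs) had a *Retnlg* UMI, between 0.188% and 0.750% per library. Whether these UMIs were free RNA was not tested. Retnlg+ Siglecf- cells were 11.4% to 25.2% of the neutrophil gate per library.

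**Figure D1:**
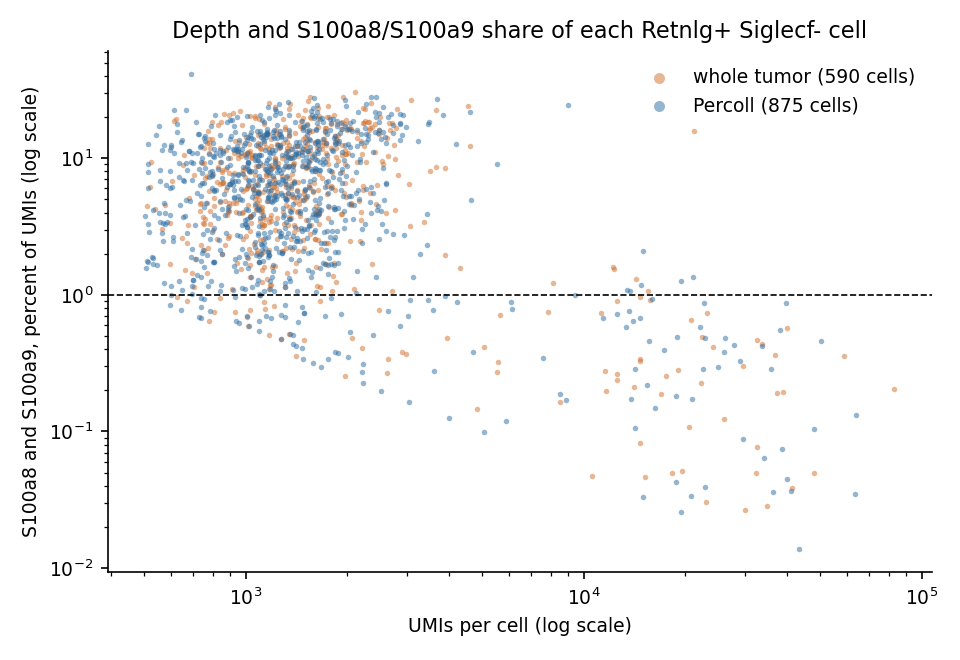
Each point is a Retnlg+ Siglecf- cell, with its UMIs on the x axis and the percent of them from *S100a8* and *S100a9* on the y axis, both on log scales, and the dashed line marks 1%. The 1275 cells at or above the line lie mostly near a median of 1265 UMIs, and of the 190 cells below it 88 have over 10000 UMIs.

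The cells were not uniform. In 1275 of them, *S100a8* and *S100a9* reached 1% of UMIs, with a median of 1265 UMIs per cell. The remaining 190 cells had a median of 6115 UMIs, and 88 of them had over 10000. The plot of depth against *S100a8*/*S100a9* share shows the large cells as a separate cloud at low share. Keratin genes, which mark epithelial tumor cells, were detected far more often in these cells: *Krt18* in 58.9% of the 190 and in 8.86% of the 1275, and *Krt8* in 55.3% and 6.67%. Detection rises with depth, which was not matched between the 190 and the 1275. Within the 190, *Slpi* was at 3.61 per 10000 UMIs and *Il1b* at 9.17, compared with 37.0 and 91.2 within the 1275. Although few, the 190 cells supplied between 38.8% and 76.1% of the Retnlg+ Siglecf- UMIs of a library. Sums over all 1465 cells therefore mix both kinds, and the 1275 cells with *S100a8* and *S100a9* at 1% of UMIs or more, called S100-high cells, were also examined alone.

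Markers of other cell types were also counted in S100-high cells. Of 8 macrophage genes all were detected, at a summed 2.70 to 6.08 per 10000 UMIs per library, with a UMI in 38.9% of cells. The 10 T and NK genes summed to 0 to 7.31 per 10000, the 6 B cell genes to 0.158 to 7.00, the 5 epithelial genes to 0.233 to 11.0 and the 6 stromal and endothelial genes to 0 to 0.998. The 5 monocyte genes reached 0.550 to 16.4 and the 7 dendritic cell genes 4.60 to 30.3, with *Cd209a* and *Siglech* at 0. At least 1 UMI of these lists was found in 54.4% of cells for dendritic cell genes, 17.6% for monocyte, 14.7% for epithelial, 11.5% for T and NK, 9.10% for B cell and 4.39% for stromal and endothelial genes. *Epx* and *Prg2*, which define eosinophils, were at 0 in all 1465 cells, as were *Mcpt8* of basophils and *Fcer1a*. Of the 8 eosinophil, basophil and mast cell genes, 3 were detected, with a UMI in 0.784% of S100-high cells. No such counts are given here for Siglecf+ cells, whose identity rests on the gate. T cell receptor contigs, sequenced in the Percoll libraries, were found for 0 of 875 Retnlg+ Siglecf- cells, which allows a share of up to 0.421% (exact Clopper-Pearson, 95%). A contig was found for 7797 of 9284 T cells (84.0%) and for 51 of 49644 other cells with no *Cd3* UMI (0.103%). The gate itself allowed no *Cd3* UMI, so the 0 does not set Retnlg+ Siglecf- cells apart from those other cells.

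*S100a9*, whose level the limit of 1% fixes in part, was the most abundant RNA of S100-high cells with 522 per 10000 UMIs, followed by *S100a8* at 350, the iron-storage gene *Fth1* at 307, the chemokine gene *Cxcl2* at 196, *Gm42418* at 182 and *Srgn*, the proteoglycan of secretory granules, at 169. *Tmsb4x*, *Malat1*, *Actb* and *G0s2*, an inhibitor of fat breakdown, completed the 10 most abundant at 131, 115, 111 and 99.5 per 10000. Over all 1465 cells *S100a9* fell to 236 per 10000 and *Actg1* took the place of *G0s2*. *Slpi* was detected in 77.6% of S100-high cells, *Lrg1* in 24.9% and *Asprv1* in 23.3%. In T cells the same genes were detected in 4.34%, 0.437% and 0.230%, although T cells had more UMIs. Primary granule genes, which neutrophils transcribe only as early precursors in marrow, were near absent: *Elane* had no UMI and *Mpo* 3 UMIs, none of them in an S100-high cell.

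Genes of late marrow precursors came from very few cells. *Camp*, a secondary granule peptide, had 974 UMIs, of which 90.0% lay in 3 of 1275 S100-high cells. Likewise, 3 cells held 79.3% of the 2437 UMIs of *Ngp* and 77.6% of the 558 UMIs of *Ltf*, the lactoferrin gene. In the median library *Camp* was at 0.0544 per 10000 UMIs and the highest library reached 38.6. The sum over cells thus described a handful of cells and not the population.

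Siglecf+ cells were held to the same lower limit of 1% *S100a8* and *S100a9*, although their median share was 3.72%, compared with 6.93% in S100-high Retnlg+ Siglecf- cells. The RNA of the 2 kinds of cell differed, which follows in part from the gates and is described with no test. *Slpi* was at a median of 37.8 per 10000 UMIs over the 16 libraries (23.4 to 51.6), compared with 3.12 (1.25 to 8.07) in Siglecf+ cells. *Lrg1* was at 4.01 (1.31 to 7.22) against 0.371 (0 to 1.30), and *Asprv1* at 3.39 (1.93 to 12.0) against 0.334 (0.0877 to 0.920). All 3 were higher in Retnlg+ Siglecf- cells in 16 of 16 libraries. The chemokine receptor gene *Cxcr2* was at 3.86 (2.07 to 6.96) against 1.85 (1.25 to 3.34), again higher in every library. *Csf3r*, the receptor for the neutrophil growth factor G-CSF, was at 9.32 against 5.89, also in 16 of 16.

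**Figure D2:**
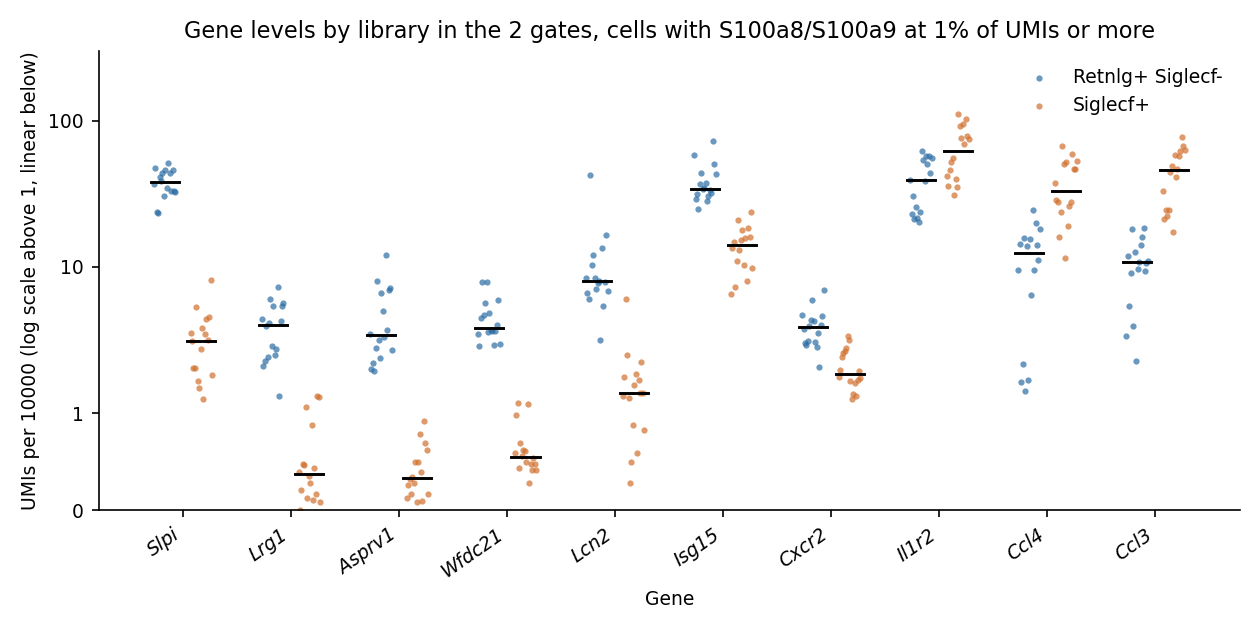
Points are the 16 libraries, with UMIs per 10000 on the y axis for 10 genes in Retnlg+ Siglecf- (blue) and Siglecf+ (orange) cells with *S100a8* and *S100a9* at 1% of UMIs or more, and black bars are medians. *Slpi* lies at 23.4 to 51.6 in the blue points and at 1.25 to 8.07 in the orange ones, whereas *Ccl3* lies at 2.26 to 18.4 and 17.4 to 76.7.

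*Lcn2*, a siderophore-binding protein, was at 7.95 (3.16 to 42.7) against 1.38 (0.277 to 5.99), *Wfdc21* at 3.84 against 0.545 and the stefin gene *Stfa2l1* at 6.90 against 0.531, each in 16 of 16 libraries. Of genes that interferon induces, *Isg15* was at 34.2 (24.7 to 72.8) against 14.1 (6.52 to 23.7), *Ifitm1* at 16.95 against 6.30 and *Rsad2* at 3.33 against 0.632. The chemokine gene *Cxcl3* was at 9.02 against 1.93. The library ranges of *Slpi*, *Lrg1*, *Asprv1*, *Wfdc21*, *Stfa2l1* and *Isg15* did not overlap between the gates.

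Other genes lay on the Siglecf+ side. *Ccl3* and *Ccl4*, which encode chemokines for T cells and macrophages, were at 10.7 (2.26 to 18.4) and 12.5 (1.42 to 24.5) in Retnlg+ Siglecf- cells, compared with 45.7 (17.4 to 76.7) and 33.1 (11.5 to 67.0) in Siglecf+ cells. *Tnf* was at 1.57 against 4.76, and *Il1r2*, a decoy receptor for IL-1, at 38.9 against 62.2. These 4 genes were lower in Retnlg+ Siglecf- cells in 16 of 16 libraries, as were *Ltc4s*, which makes leukotriene C4, and *Rcan1*, a calcineurin regulator. *Vegfa* was at 1.55 against 3.604 (lower in 15 libraries) and *Icam1* at 1.503 against 3.39 (lower in 14). *Il1b* (101 against 111), *Cxcl2* (194 against 208) and *Cd274*, which encodes PD-L1 (1.73 against 2.01), were lower in 11, 10 and 11 libraries, with overlapping ranges.

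Cells with neither *Retnlg* nor *Siglecf* lay between the gates for most of these genes. Summed over libraries, *Slpi* was at 37.0 per 10000 UMIs in S100-high Retnlg+ Siglecf- cells, 12.0 in cells with neither gene and 3.35 in Siglecf+ cells. *Lrg1* followed with 3.76, 1.82 and 0.453, and *Ccl3* with 11.0, 34.0 and 44.6. *Il1b* did not keep this order, at 91.2, 113 and 105.

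Within S100-high Retnlg+ Siglecf- cells, some genes differed with the amount of *Retnlg* itself. Cells with 1, 2 to 4, and 5 or more *Retnlg* UMIs numbered 366, 426 and 483 and had median depths of 1126.5, 1207.5 and 1499 UMIs. *Lcn2* was at 3.30, 5.71 and 20.5 per 10000 UMIs in the 3 bins and *Wfdc21* at 2.40, 3.43 and 6.69, each higher in the top than in the bottom bin in 15 of 16 libraries. The gate genes *S100a8*, at 273, 283 and 439, and *S100a9*, at 380, 427 and 665, were higher in the top bin in 16 of 16. *Cxcl2* went the other way, at 244, 203 and 164 (lower in 15 libraries), as did *Il1b* at 103, 99.8 and 78.8 (lower in 14) and *Isg15* at 42.9, 42.9 and 31.4 (lower in 12). *Cd274* was at 2.15, 2.13 and 1.35 (lower in 13), *Ccl4* at 15.4, 11.5 and 9.18 and *Ifitm1* at 19.02, 18.02 and 15.004 (each lower in 12). The markers *Slpi* (37.0, 34.2 and 38.8) and *Lrg1* (3.72, 3.90 and 3.68) had no such order, and *Asprv1* was at 3.64, 5.14 and 4.81, higher in the top than in the bottom bin in 12 libraries. The bins were cut on a gene of the gate and differ in depth, and no test was run.

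The number of cells was compared between preparations to ask what Percoll enrichment did to the group. Retnlg+ Siglecf- cells were 0.903% ± 0.130 (SD, n = 8) of all cells in whole tumor libraries and 1.35% ± 0.330 (SD, n = 8) in Percoll libraries, with a mean difference of 0.443 percentage points. The whole tumor libraries ranged from 0.665% (Anti-CTLA-4) to 1.12% (PancVAX + Anti-PD-1) and the Percoll libraries from 0.9499% (PancVAX + Anti-PD-1) to 2.05% (Anti-PD-1), with some overlap. The share was higher in Percoll for 7 of 8 treatments, all except PancVAX + Anti-PD-1 (two-sided exact sign-flip permutation p = 0.0156, where 0.0078 is the smallest possible). The gate as a whole rose alike, from 5.05% ± 1.404 to 7.62% ± 1.32 (exact permutation p = 0.0156). Within the gate, the Retnlg+ Siglecf- share was 18.7% ± 3.82 in whole tumor and 17.9% ± 4.07 in Percoll libraries (exact permutation p = 0.203). The mitochondrial limit acted unevenly here, since among barcodes that met every other condition it removed 101 of 691 from whole tumor but 3 of 878 from Percoll libraries.

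No agent was found to change the share of Retnlg+ Siglecf- cells among all cells. For each treatment the mean of its 2 library percentages was used, and the 4 treatments with an agent were compared with the 4 without it over all 70 divisions, for which the smallest possible two-sided p is 0.0286. With PancVAX the share was 1.08% ± 0.0907 (SD, n = 4) and without it 1.17% ± 0.227 (exact permutation p = 0.571). With Anti-PD-1 it was 1.21% ± 0.195 against 1.04% ± 0.0969 (exact permutation p = 0.171), and with Anti-CTLA-4 1.06% ± 0.119 against 1.19% ± 0.201 (exact permutation p = 0.371). After adjustment over the 3 agents these p-values were 0.571, 0.514 and 0.557 (Benjamini-Hochberg, exact permutation). The sign for PancVAX depended on the Anti-PD-1 pool, without which the difference went from -0.0900 to 0.0129 percentage points, and on preparation, since the whole tumor libraries alone gave 0.0926. Anti-PD-1 and Anti-CTLA-4 differences also shrank without the Anti-PD-1 pool, from 0.162 to 0.0714 and from -0.125 to -0.0283.

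**Figure D3:**
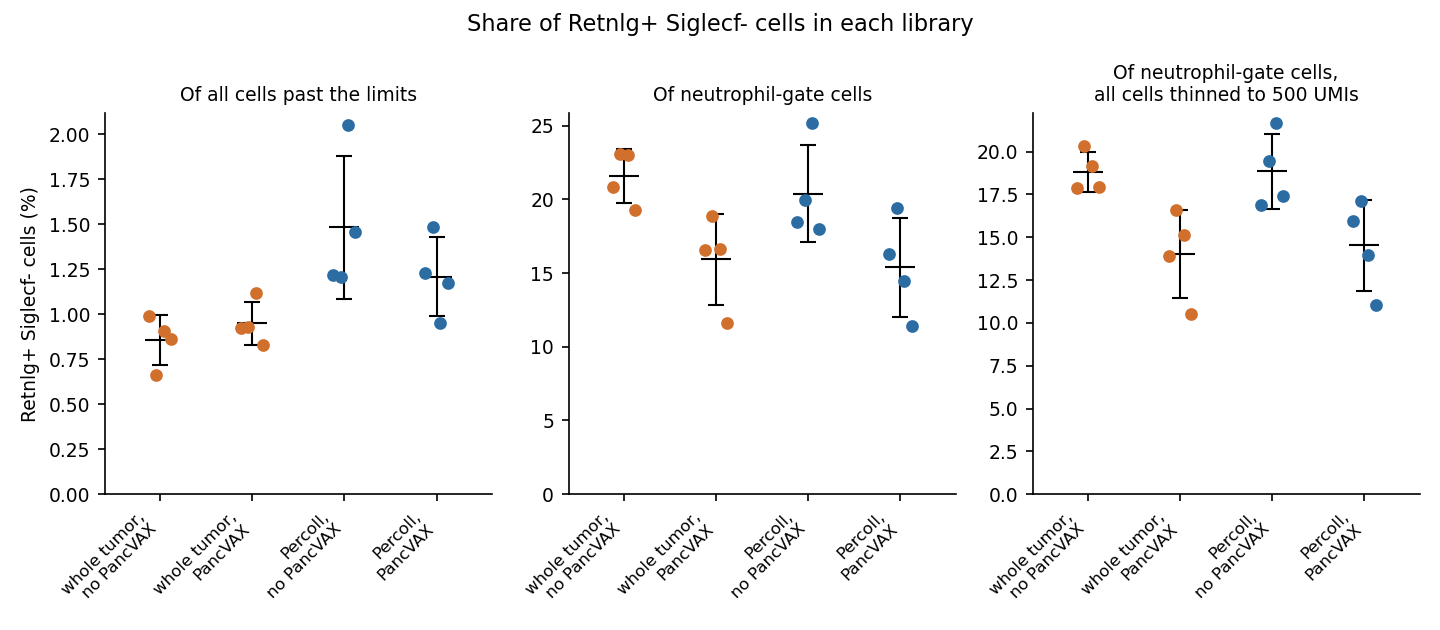
Points are libraries, with the percent of Retnlg+ Siglecf- cells on the y axis among all cells (left), among neutrophil-gate cells (middle) and among neutrophil-gate cells after thinning to 500 UMIs (right), and bars are the mean ± SD of 4 libraries. In the middle panel whole tumor libraries lie at 11.6% to 18.9% with PancVAX and 19.3% to 23.1% without it, whereas Percoll libraries overlap.

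Within the neutrophil gate, the Retnlg+ Siglecf- share was lower with PancVAX, although the difference did not pass the test. The 4 PancVAX treatments had shares of 11.5% (PancVAX + Anti-CTLA-4), 15.5% (PancVAX + Anti-PD-1), 16.4% (PancVAX alone) and 19.1% (all 3 agents). Those without it had 18.6% (Isotype control), 19.7% (Anti-PD-1 + Anti-CTLA-4), 21.5% (Anti-CTLA-4) and 24.1% (Anti-PD-1). The groups overlapped only in that the treatment with all 3 agents lay above Isotype control. The means were 15.7% ± 3.16 and 21.0% ± 2.39 (SD, n = 4 each), a difference of -5.33 percentage points (exact permutation p = 0.0571, adjusted over 3 agents 0.171). Set against the treatment with the same other agents, the share was lower with PancVAX in 4 of 4 pairs, with differences from -10.001 to -0.534 percentage points, which gave the smallest p that 4 pairs allow, 0.125 (exact sign-flip permutation, adjusted 0.375). Detection of a UMI depends on depth, so each cell was also thinned to 500 UMIs before the gate. At that depth the limit of 5 *S100a8* and *S100a9* UMIs amounts to 1% of UMIs, so the gate itself changed as well. It held 8344 cells before thinning and a mean of 6372 after it. The shares then were 14.3% ± 2.54 and 18.8% ± 1.54 with no overlap, which gave the smallest p possible, 0.0286 (exact permutation, adjusted 0.0857).

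Both preparations went in the same direction. The whole tumor and Percoll library of a treatment may hold the same mice, so they cannot be counted as independent repeats. The p-values of this paragraph are not adjusted over the 3 agents. In whole tumor libraries the share was 15.9% with PancVAX and 21.6% without it, and the 2 groups did not overlap (exact permutation p = 0.0286, the smallest possible). In Percoll libraries it was 15.4% and 20.4%, with overlap (exact permutation p = 0.0857). Among S100-high cells the values were 18.7% ± 3.85 and 24.3% ± 2.83 (exact permutation p = 0.0571). Leaving out each pool in turn gave differences from -6.49 to -3.95 percentage points. Other parts of the gate moved beside it: Siglecf+ cells were 25.5% ± 3.93 of the gate with PancVAX and 19.6% ± 3.63 without it (exact permutation p = 0.0571), and the gate was 7.05% ± 1.11 of all cells against 5.62% ± 0.808 (exact permutation p = 0.0571). Shares of 1 total move against each other by construction, and the counts do not show which cells rose or fell in number. The whole tumor libraries also differed in the median mitochondrial share of Retnlg+ Siglecf- cells. It was 1.22% to 2.84% with PancVAX and 2.30%, 5.29%, 5.34% and 5.52% without it. The limits on depth and mitochondrial share kept 33781 of 36388 whole tumor barcodes with PancVAX and 32166 of 38406 without it. The part of these differences in the shares was not tested. The mean of *S100a8* and *S100a9* UMIs per T cell had a median of 0.908 over the libraries with PancVAX and 0.493 over those without it. Over all T cells the 95th percentile was 0 and the highest count 572, so few T cells carried these means. Whether these UMIs were free RNA, and their part in the shares, was not tested.

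For the antibodies the same shares were 19.6% ± 3.51 with and 17.03% ± 4.22 without Anti-PD-1 (exact permutation p = 0.400) and 18.0% ± 4.42 with and 18.7% ± 3.85 without Anti-CTLA-4 (exact permutation p = 0.857). The Anti-PD-1 difference of 2.58 percentage points dropped to 0.747 without the PancVAX + Anti-CTLA-4 pool and to 1.09 without the Anti-PD-1 pool, and was 3.95 without the PancVAX + Anti-PD-1 pool and 4.08 without the Anti-CTLA-4 pool. The Anti-CTLA-4 difference of -0.704 turned to 1.44 without the PancVAX + Anti-CTLA-4 pool and to 1.10 without the Anti-PD-1 pool.

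The clearest change in the cells themselves was between preparations, and it was led by mitochondrial RNA. In the median Retnlg+ Siglecf- cell of a whole tumor library, mitochondrial genes made up 1.22% to 5.52% of UMIs (median of 8 libraries 2.66%). In Percoll libraries they made up 0.162% to 0.368% (median 0.238%). The groups did not overlap, and the share was lower in Percoll for 8 of 8 treatments, by a mean of 3.06 percentage points (two-sided exact sign-flip permutation p = 0.0078, the smallest possible). S100-high cells gave the same picture, at 1.15% to 5.60% and 0.150% to 0.320%.

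Other cells of the same libraries also had less mitochondrial RNA in Percoll. T cells went from 2.00% to 3.95% in whole tumor to 1.65% to 2.35% in Percoll libraries, and Siglecf+ cells from 1.34% to 6.55% to 0.673% to 0.838%. On the log2 scale the Percoll to whole tumor ratio was -3.59 ± 0.947 (SD, n = 8) in Retnlg+ Siglecf- cells, -2.10 ± 0.802 in Siglecf+ cells and -0.47 ± 0.313 in T cells. The difference from Siglecf+ cells was -1.48 and that from T cells -3.11, both in 8 of 8 treatments (exact sign-flip permutation p = 0.0078 each). In percentage points, Siglecf+ cells fell by a mean of 2.86 ± 1.99 and T cells by 0.867 ± 0.634. On that scale Retnlg+ Siglecf- cells differed from Siglecf+ cells by -0.196 ± 0.514, with 5 of 8 treatments below 0, and did not pass (exact sign-flip permutation p = 0.305), whereas the difference from T cells was -2.19 ± 1.21 in 8 of 8 (p = 0.0078, exact sign-flip permutation). A mitochondrial share under 10% was part of the rule that chose the cells. This limit cut the upper end in whole tumor libraries, as given above, so these tests compare only cells under it.

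Gene by gene, 75 genes were higher (1.58% of 4732 tested) and 19 lower (0.402%) in Percoll than in whole tumor libraries over all cells, by edgeR's quasi-likelihood test with treatment as a block, at a Benjamini-Hochberg adjusted p below 0.05 and a log2 fold change above 0.5 in size. Among S100-high cells, 65 were higher (3.36% of 1937) and 51 lower (2.63%). The lower calls of both analyses include mitochondrial genes, whose summed share was part of the rule that chose the cells. Of the 94 genes called over all cells, 63 were also called among S100-high cells, which is 67.0% of the former and 54.3% of the latter. The 94 went to 45 without Anti-PD-1 + Anti-CTLA-4, to 47 without PancVAX or PancVAX + Anti-PD-1, to 56 without Anti-CTLA-4 and to 61 without PancVAX + Anti-CTLA-4. Levels below are for S100-high cells, and log2 fold changes are Percoll minus whole tumor.

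**Figure D4:**
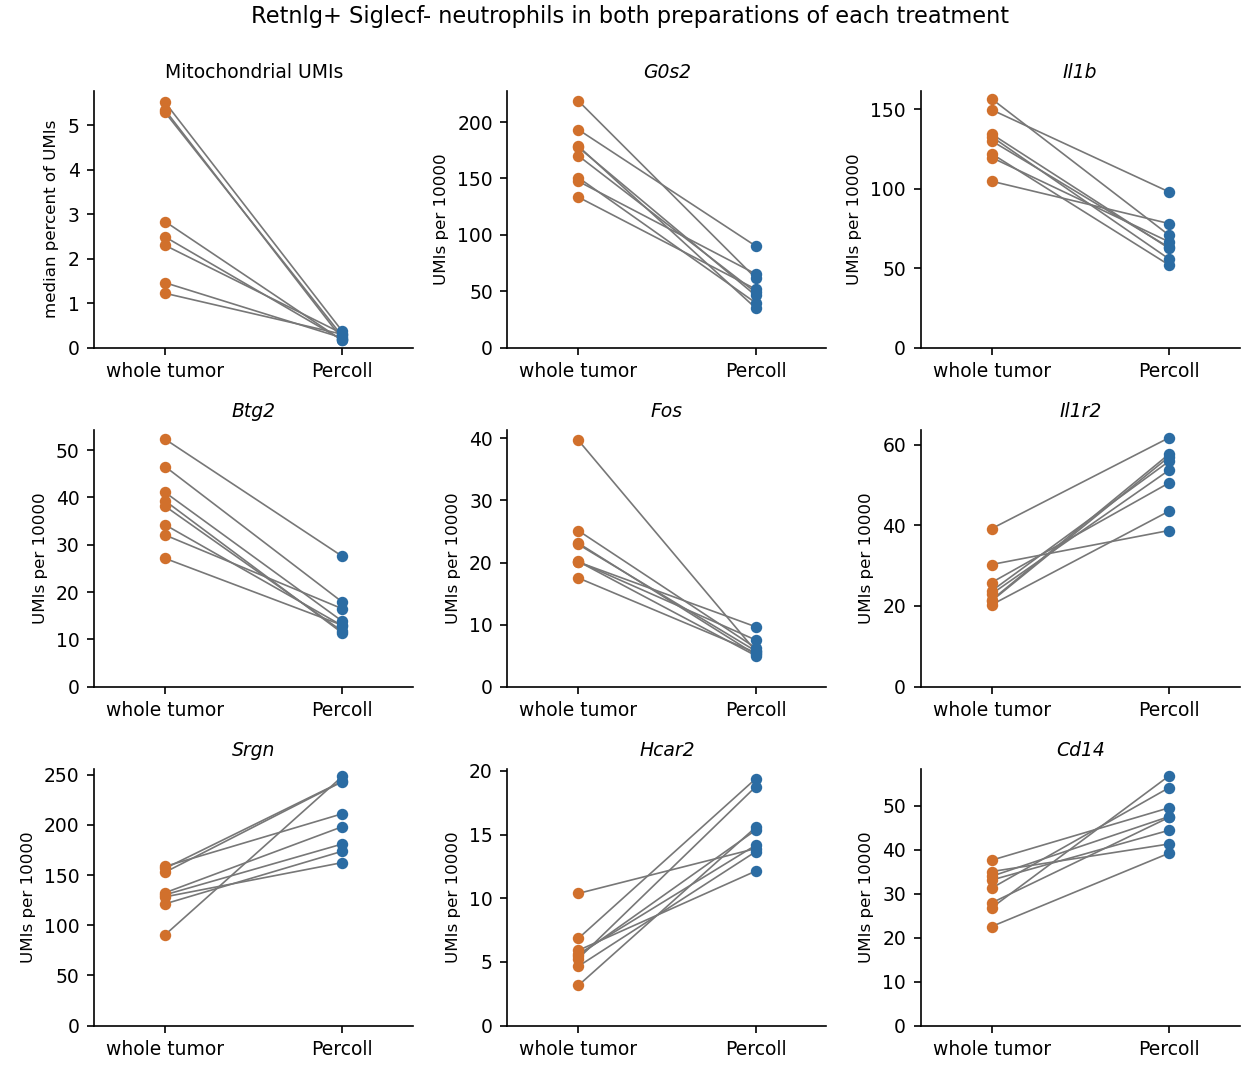
Each grey line joins the whole tumor (orange) and Percoll (blue) library of 1 treatment, for the median mitochondrial percent of UMIs in all Retnlg+ Siglecf- cells and for the level of 8 genes, as UMIs per 10000, in those with *S100a8* and *S100a9* at 1% of UMIs or more. *G0s2*, *Il1b* and *Fos* are lower in Percoll for 8 of 8 treatments with no overlap, and *Il1r2*, *Srgn*, *Hcar2* and *Cd14* are higher for 8 of 8.

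Among genes lower in Percoll, *G0s2* was at 35.2 to 90.2 per 10000 UMIs (median 50.5) in Percoll and at 133 to 219 (median 174) in whole tumor libraries. The ranges were far apart, and *G0s2* had the smallest adjusted p of the named genes among S100-high cells (log2 fold change -1.76 ± 0.13 SE, adjusted p = 7.47e-07, and -1.58 over all cells). *Fos*, a transcription factor gene induced within minutes of a stimulus, was at 5.00 to 9.66 (median 5.76) against 17.5 to 39.7 (median 21.5), again with no overlap. Its log2 fold change was -1.96 ± 0.17 (adjusted p = 2.03e-06), but over all cells it was -0.60 and did not pass (adjusted p = 0.117). *Btg2*, an antiproliferative early response gene, was at 11.3 to 27.6 against 27.1 to 52.3, lower in 8 of 8 treatments (log2 fold change -1.42 ± 0.12, adjusted p = 2.03e-06).

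Cytokine genes were split. *Il1b*, which encodes the inflammatory cytokine IL-1β, was at 52.1 to 98.1 (median 65.0) in Percoll and 105 to 157 (median 132) in whole tumor libraries, with no overlap (log2 fold change -1.03 ± 0.11, adjusted p = 1.31e-05, and -0.85 over all cells). *Osm* (oncostatin M) and *Ptgs2* (cyclooxygenase-2) fell by 1.00 and 0.90 on the log2 scale, among S100-high cells only by the call, with values of -0.78 and -0.09 that did not pass over all cells. By contrast, the genes of both inhibitors of IL-1 rose. *Il1r2*, the decoy receptor, was at 38.7 to 61.7 against 20.3 to 39.1, which overlapped slightly (log2 fold change 0.97 ± 0.12, adjusted p = 6.82e-05), and *Il1rn*, the receptor antagonist, at 8.32 to 19.1 against 4.53 to 10.9 (0.63 ± 0.17, adjusted p = 0.0349).

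*Cd14*, *Tlr2* and the other genes of this paragraph were also called higher in Percoll libraries, each in 8 of 8 treatments. *Cd14*, the lipopolysaccharide co-receptor, was at 39.2 to 56.7 in Percoll and 22.5 to 37.6 in whole tumor libraries, with no overlap (log2 fold change 0.55 ± 0.11, adjusted p = 0.00664). *Tlr2*, a receptor for bacterial lipoproteins, was at 2.23 to 4.12 against 0.877 to 2.20 (0.95 ± 0.17, adjusted p = 0.00178). *Clec4e*, a receptor for mycobacterial glycolipid, and *Trem1*, an amplifier of myeloid activation, had log2 fold changes of 0.66 and 0.63. *Hcar2*, a receptor for niacin and β-hydroxybutyrate, was at 12.1 to 19.4 against 3.16 to 10.4 (1.33 ± 0.17, adjusted p = 8.56e-05). The stress genes *Gadd45a* and *Gadd45g* rose by 1.67 and 2.36, the kinase gene *Jak2* by 1.17, *Nfkb1*, an NF-κB subunit, by 1.25, the arginase gene *Arg2* by 0.72 and the protease inhibitor *Cstb* by 0.98.

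The mitochondrially encoded genes fell further among S100-high cells than over all cells. *mt-Cytb* was at 3.69 to 12.8 per 10000 in Percoll and at 27.7 to 87.4 in whole tumor libraries (log2 fold change -3.15 ± 0.28), compared with -0.89 over all cells. *mt-Co3* gave -2.71 and -0.81, and *mt-Nd1* -2.94 and -0.99. All 11 mitochondrial genes named here by the rule (*mt-Nd1* to *mt-Nd5*, *mt-Nd4l*, *mt-Cytb*, *mt-Co2*, *mt-Co3*, *mt-Atp6* and *mt-Atp8*) were called lower among S100-high cells, with ranges that did not overlap. Their summed share was limited by the rule that chose the cells. That limit removed 101 of 691 barcodes from whole tumor but 3 of 878 from Percoll libraries. The values of these genes are therefore given as a description.

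Some genes were called in 1 of the analyses only. *Dusp6*, *Hmox1*, *Plk2*, *Myc* and *Tcim* rose over all cells by 1.18 to 1.45 on the log2 scale, whereas among S100-high cells *Dusp6* and *Hmox1* had values of 0.73 and 0.82 that did not pass (adjusted p = 0.154 and 0.130), and the other 3 were too low to be tested. The level of *Myc* among S100-high cells was a median of 0.114 per 10000 UMIs in Percoll and 0.251 in whole tumor libraries, higher in 2 treatments and lower in 4. *Plk2* was higher in 4 and lower in 4, and *Tcim* was higher in 5 and lower in 3. *Scd2* fell by 0.85 over all cells and was likewise not tested among S100-high cells. *Spp1* (osteopontin) and *B2m* rose among S100-high cells by 0.92 and 0.58, with 0.28 and 0.60 over all cells that did not pass. The glycolytic gene *Eno1* fell by 0.54 among S100-high cells, with -0.24 over all cells that did not pass.

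Of the markers, *Asprv1* rose over all cells (log2 fold change 1.02 ± 0.23, adjusted p = 0.0330) and was at 2.70 to 12.0 in Percoll and 1.93 to 8.05 in whole tumor libraries among S100-high cells, where it did not pass (0.82 ± 0.25, adjusted p = 0.0584). *Slpi* (0.11 ± 0.18) and *Lrg1* (0.15 ± 0.19) did not pass either. *Retnlg*, *S100a8* and *S100a9*, which set the gate, had values of -0.07, -0.31 and -0.03, given as a description. Across 13 lists of neutrophil programs with 173 genes, 138 genes were tested among S100-high cells, of which 9 rose and 8 fell (12.3% of those tested, beside 5.99% of all genes), with a median log2 fold change of 0.07 beside -0.01 over all genes. Over all cells 8 rose and 2 fell of 143, beside 1.58% and 0.402% of all genes.

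By list, the immediate early and stress genes had 0 higher and 4 lower (*Btg2*, *Fos*, *Junb* and *Dusp1*) of 12 tested among S100-high cells, beside 3.36% higher and 2.63% lower of all genes, with a median of -0.43. Over all cells only *Btg2* of the 12 passed, and the median was -0.06. Of 18 inflammatory cytokine and NF-κB genes, 2 rose and 3 fell among S100-high cells, beside the same shares of all genes, with a median of 0.27. *Nfkbia*, the NF-κB inhibitor, rose over all cells (0.51, adjusted p = 0.0491) and had a value of 0.28 among S100-high cells (adjusted p = 0.175). None of 23 interferon-stimulated genes, 8 chemoattractant receptors, 6 NADPH oxidase subunits or 7 secondary granule genes passed in edgeR, with medians of -0.01, 0.05, 0.09 and 0.19. Over these 1937 genes, 404 had an unadjusted p below 0.05, and DESeq2 called 75.

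Differences by agent were few. PancVAX gave 46 calls over all cells (0.687% of 6700 genes) and 2 among S100-high cells (0.0613% of 3261). Anti-PD-1 gave 2 (0.0299%) and 0 (0%), with 272 genes at an unadjusted p below 0.05 in the latter and 8 called by DESeq2. Anti-CTLA-4 gave 34 (0.507%) and 16 (0.491%). The 3 agents were fitted together by edgeR's quasi-likelihood test over 8 pools, each the sum of a treatment's libraries, and they share their pools. Of the markers that the gate did not use, *Slpi*, *Lrg1* and *Asprv1* were called for no agent in either analysis. *Slpi* was at 31.0 to 42.3 per 10000 UMIs in the PancVAX pools and at 31.3 to 43.2 in the others among S100-high cells (log2 fold change 0.03 ± 0.15, adjusted p = 0.991).

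Calls over all cells depended on 3 cells. *Col1a1*, a collagen of fibroblasts, was at 18.5 per 10000 UMIs in the PancVAX + Anti-CTLA-4 pool and 8.33 in the pool with all 3 agents, and at 0 to 0.162 in the other 6. Of its 1613 UMIs, 98.4% lay in 3 cells, as did 100% of the 228 UMIs of *Cthrc1*, a collagen-modifying protein, and 174 of *Fstl1*. These cells had 47996, 20448 and 20780 UMIs and 24, 22 and 7 UMIs of *S100a8* and *S100a9*. *Col1a2*, *Col5a2*, *Col6a3*, *Postn*, *Mfap5*, *Serpinf1*, *Igfbp4* and *Igfbp7* were carried by the same 3 cells, with 92.5% or more of the UMIs of each. Without the 3 cells with most *Col1a1*, the counts dropped to 7 for PancVAX, 3 for Anti-CTLA-4 and 1 for Anti-PD-1. Leaving out a pool gave 6 calls for PancVAX without the pool with all 3 agents, 17 without PancVAX + Anti-CTLA-4, 25 without Anti-PD-1 + Anti-CTLA-4 and 14 without Anti-CTLA-4. For Anti-CTLA-4 it gave 16 without the PancVAX pool, 8 without the pool with all 3 agents and 7 without PancVAX + Anti-CTLA-4.

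With PancVAX, 5 genes were called lower over all cells. *Top2a*, a topoisomerase of dividing cells, was at 0.207, 0.240, 0.365 and 1.75 per 10000 UMIs in the PancVAX pools, the last in PancVAX + Anti-CTLA-4, and at 1.12, 1.96, 2.01 and 2.44 in the others. Its log2 fold change was -1.79 ± 0.33 (adjusted p = 0.0138). *Cep55*, *Cks1b* and *Smc4*, which also act in mitosis or its control, and *Psat1*, an enzyme of serine synthesis, were called with -1.94, -0.98, -0.98 and -1.35. Among S100-high cells *Cks1b* and *Smc4* were at -0.13 and -0.16 and did not pass (adjusted p = 0.989 and 0.969), and *Top2a* had 47 of its 584 UMIs there, too few to be tested. DESeq2 called 0 genes lower. The 5 lower calls became 0 without the pool with all 3 agents or without Anti-PD-1 + Anti-CTLA-4, 1 without the PancVAX pool and 3 without Anti-CTLA-4. They became 8 without PancVAX + Anti-PD-1, 11 without PancVAX + Anti-CTLA-4, 12 without Anti-PD-1 and 10 without Isotype control.

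*Ccl5*, a chemokine gene of T and NK cells, was the only gene called for PancVAX in both analyses. Among S100-high cells it was at 0.472, 0.480, 2.67 and 3.28 per 10000 UMIs in the PancVAX pools, the highest being PancVAX + Anti-CTLA-4 and PancVAX + Anti-PD-1, and at 0, 0.117, 0.160 and 0.234 in the others. The groups did not overlap (log2 fold change 3.58 ± 0.65, adjusted p = 0.0389, and 4.04 ± 0.71, adjusted p = 0.0110 over all cells). Among S100-high cells the log2 fold change was 2.30 without the PancVAX + Anti-PD-1 pool and 5.04 without the pool with all 3 agents, the ends of its range. It had 197 UMIs in 68 cells, of which 54.8% lay in 3 cells. The T and NK list, which holds *Ccl5* itself, summed to 0.801 to 4.61 per 10000 in the PancVAX pools and 0.353 to 0.937 in the others. Whether the *Ccl5* UMIs belong to neutrophils was not tested. With the 16 libraries as units and preparation in the model, *Ccl5* did not pass over all cells (adjusted p = 0.0808) or among S100-high cells (adjusted p = 0.495), and edgeR called 0 genes for PancVAX in both. By DESeq2 *Ccl5* passed over all cells but not among S100-high cells (adjusted p = 0.144). The other call among S100-high cells was *Pdia6*, a chaperone of the endoplasmic reticulum (1.52 ± 0.28, adjusted p = 0.0389), which had 29.1% of its 179 UMIs in 1 cell and a value of 0.20 that did not pass over all cells. Both calls were lost without the PancVAX + Anti-CTLA-4, Anti-PD-1 + Anti-CTLA-4, Anti-CTLA-4 or Isotype control pool, each of which left 0 genes. Without the pool with all 3 agents 1 gene was called, without PancVAX + Anti-PD-1 5, and without Anti-PD-1 14.

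With Anti-CTLA-4, *Hsd11b1*, an enzyme that activates glucocorticoids, was called in both analyses, and so was *Iigp1*, an interferon-inducible GTPase. *Hsd11b1* was at 0.703, 1.02, 1.38 and 5.85 per 10000 UMIs with Anti-CTLA-4 among S100-high cells and at 0.259, 0.427, 0.706 and 0.969 without it, so the groups overlapped, and the Anti-PD-1 + Anti-CTLA-4 pool stood out (log2 fold change 1.81 ± 0.38, adjusted p = 0.0409). The fold change was 0.87 without that pool and at most 2.45 without another. *Iigp1* was at 0.176, 0.363, 0.622 and 2.21 with it and 0.107, 0.112, 0.130 and 0.289 without it, highest again in Anti-PD-1 + Anti-CTLA-4 (2.42 ± 0.52, adjusted p = 0.0409), with 59.8% of its 112 UMIs in 3 cells. With the 16 libraries as units and preparation in the model, edgeR called 0 genes for Anti-CTLA-4 in both analyses, and *Hsd11b1* had adjusted p = 0.454 over all cells and 0.338 among S100-high cells. DESeq2 called 4 genes among S100-high cells, without *Hsd11b1* (adjusted p = 0.0760) and *Iigp1* (adjusted p = 0.195). *Sparc*, *Cp*, *Mgp*, *Crip2*, *Pdia6* and *Mt1* were called among S100-high cells only, with log2 fold changes of 1.16 to 1.78, and their 3 highest cells held 32.1% to 50.9% of their UMIs. The 16 calls went to 3 without the Anti-PD-1 + Anti-CTLA-4 pool, to 0 without PancVAX + Anti-PD-1, to 33 without Anti-CTLA-4, to 25 without Anti-PD-1 and to 10 without PancVAX + Anti-CTLA-4. For Anti-PD-1, *Akr1c18* and *Cthrc1* were called over all cells. *Akr1c18* had 79 UMIs, of which 79.7% lay in 1 cell. The 2 calls went to 5 without the pool with all 3 agents and to 4 without Anti-CTLA-4 or Anti-PD-1. Among S100-high cells, where none passed, 1 to 27 genes passed when a pool was left out, with 27 without PancVAX + Anti-CTLA-4, 12 without Anti-PD-1 and 9 without the pool with all 3 agents.

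The neutrophil programs gave no other call for an agent. Of 147 list genes tested among S100-high cells, 0 passed for PancVAX and Anti-PD-1 and 1 (*Iigp1*, 0.680%) for Anti-CTLA-4, by edgeR, beside 0.0613%, 0% and 0.491% of all genes. The same counts held for the 151 tested over all cells, beside 0.687%, 0.0299% and 0.507% of all genes. Over all genes tested, 203, 272 and 288 had an unadjusted p below 0.05 for the 3 agents among S100-high cells, and DESeq2 called 0, 8 and 4. Interferon-stimulated genes had a median log2 fold change of -0.42 with PancVAX among S100-high cells, with 27 of 29 below 0, beside a median of 0.01 over all genes. Their summed level was 100.2 to 136 per 10000 UMIs in the PancVAX pools and 111 to 163 in the others, which overlapped. Over all cells 23 of 30 were below 0, with a median of -0.17. None of these genes passed for PancVAX in either analysis, and no test was run on the list as a set. Genes of a shared program may not vary independently, so the counts below 0 are a description.

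The effect of PancVAX was also compared with that in Siglecf+ cells, as an interaction of gate and vaccine. Over all cells 1 of 7715 genes was called (0.013%), and among S100-high cells 1 of 4499 (0.0222%), by edgeR. *Igfbp4* was the former, at 4.75 ± 0.59 (adjusted p = 0.00761), one of the genes carried by the 3 cells above, and its value among S100-high cells was 1.26 and did not pass (adjusted p = 0.999). *Camp* was the latter, at -6.91 ± 1.07 (adjusted p = 0.00974), and its value over all cells was -7.10 and did not pass (adjusted p = 0.164). Of its 974 UMIs in S100-high Retnlg+ Siglecf- cells, 90.0% lay in 3 cells. In Retnlg+ Siglecf- cells *Camp* itself was at 24.1, 3.09, 0.267 and 0.0745 per 10000 UMIs in the PancVAX pools and at 7.06, 0.0669, 0 and 0 in the others. The Siglecf+ side of the interaction rested on 49 *Camp* UMIs in all, and its pool levels are not given here. The sign of -6.91 can therefore not be read from the levels above. Among S100-high cells *Slpi*, *Lrg1* and *Asprv1* had values of 0.48, 0.76 and 0.36, and none passed. DESeq2 called 0 genes in either analysis, with 295 and 196 genes at an unadjusted p below 0.05 in edgeR. *Igfbp4* was lost without the pool with all 3 agents, PancVAX + Anti-CTLA-4, Anti-PD-1 + Anti-CTLA-4 or Anti-CTLA-4, each of which left 0 genes, and 5 were called without Isotype control.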

How the data were processed

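Tumor cells were profiled with a 10x Genomics 5′ kit, and the deposited matrices hold UMI counts per gene and barcode. Per the submitters' processing notes the authors used Cell Ranger 4.0.0, mm10 and Seurat, and the counts are not normalized. Libraries were matched to treatments by the number that opens each sample's description. Total counts were 77132398 to 176233225 UMIs per library, and precision is limited by the 55 to 146 Retnlg+ Siglecf- cells in each.

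The members and lists were chosen with earlier results of these data known. Counts were summed over cells per pool (agents) or per library (preparation, with treatment as a block) and tested with edgeR 4.0.16 (R 4.3.3; filterByExpr, TMM, quasi-likelihood). A gene was called at a Benjamini-Hochberg adjusted p below 0.05 and a log2 fold change above 0.5 in size. Shares were compared by exact permutation of pools or exact sign flips over treatments, enumerated in Python 3.11.15 with numpy 2.4.6. Exact counting intervals were from scipy 1.17.1. Thinning drew 500 UMIs per cell, 20 times. Doublets were not called. The separate S100-high analysis was used because large cells with little *S100a8* and *S100a9* supplied much of each sum.

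Named genes were up to 10 rises and 10 falls per comparison by log2 fold change, with a mean of at least 20 UMIs per sum, plus called list genes, the 6 markers and the 10 most abundant genes. Genes named beyond these (the comparison with Siglecf+ cells, *Retnlg* bins, *Camp*, *Ngp*, *Ltf*, keratins) were chosen after their values were seen. Alternatives were DESeq2 1.42.0, RLE size factors, no filter on low counts, the limits on cells in the study's methods (1000 to 10000 UMIs, 200 to 3000 genes and no UMI of hemoglobin genes), cells with no UMI of other cell types, single preparations, 16 libraries as units, and leaving out each pool. Scripts were tested on simulated data. T cell receptor contigs were used only to check cell identity. A gene withheld for evaluation is not reported here.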

Additional observations from a re-analysis of the deposited data

Results flagged for a closer look

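Among 105 groups of 4 to 8 samples examined, 19 had a sample far from the others. The limit used flags about 1 in 20 independent groups by chance. The groups here share pools and genes, and some hold mostly 0, so the 19 cannot be set against that rate. Values are UMIs per 10000 over all Retnlg+ Siglecf- cells. The PancVAX + Anti-CTLA-4 pool stood apart for *Cthrc1* at 3.46, both among the pools with PancVAX (others 0 to 0.345) and among those with Anti-CTLA-4, and also among pools without Anti-PD-1 (others 0). It stood apart for *Col6a3* at 2.65 among pools with PancVAX or with Anti-CTLA-4 (others in the PancVAX pools 0 to 0.380), for *Igfbp7* at 3.46 among pools with Anti-CTLA-4 (others 0.0404 to 0.621), and for *Top2a* at 1.75 among pools with PancVAX (others 0.207 to 0.365). The pool with all 3 agents stood apart for *Cthrc1* at 0.345 among pools with Anti-PD-1 (others 0). *Hsd11b1* was at 2.65 in Anti-PD-1 + Anti-CTLA-4 among pools with Anti-CTLA-4 (others 0.687 to 0.932).

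Some values that stood apart were of very few UMIs. *Col5a2* was at 0.0202 in Anti-CTLA-4 among pools without PancVAX and at 0.0200 in PancVAX + Anti-PD-1 among pools without Anti-CTLA-4, and *Col6a3* was at 0.0200 in the latter, with the others at 0. *Col1a1* was at 0.0906 in Isotype control among pools without Anti-CTLA-4 (others 0 to 0.0152).

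Among the 8 whole tumor libraries, *Gadd45g* was at 1.62 in PancVAX + Anti-CTLA-4 (others 0.0698 to 0.542), *Hcar2* at 6.57 in Anti-PD-1 (others 0.867 to 3.27), *Dusp6* at 1.08 in Anti-PD-1 + Anti-CTLA-4 (others 0.325 to 0.548), *Hmox1* at 0.779 in PancVAX + Anti-PD-1 (others 0.256 to 0.4997), *Tcim* at 1.17 in Isotype control (others 0.303 to 0.596) and *Scd2* at 2.98 in the treatment with all 3 agents (others 0.454 to 1.64). The interaction of PancVAX with the gate, Retnlg+ Siglecf- against Siglecf+, was called by edgeR for *Igfbp4* over all cells (log2 difference 4.75, adjusted p = 0.00761). Among S100-high cells it was called for *Camp* (-6.91, adjusted p = 0.00974, edgeR). Both calls were carried by few cells, and DESeq2 called 0 genes in either analysis. The causes were not tested.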

How the results depend on the processing

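The cause of each change below was not tested unless fewer samples or genes were its construction. Alternatives on S100-high cells other than the limit itself, the left-out 3 cells and the left-out pools of the interaction were chosen after seeing the data. For PancVAX, 46 genes became 2 among S100-high cells, 0 under the study's limits on cells, 4 in cells with no UMI of other cell types, 274 with no filter, 6 by DESeq2, 7 without the 3 cells with most *Col1a1*, 0 with 16 libraries as units, 0 in whole tumor and 2 in Percoll libraries, and 6 to 67 without 1 pool. Its 2 calls among S100-high cells became 0 with 16 libraries, 0 by DESeq2 and 0 to 14 without 1 pool (1 without the pool with all 3 agents and 5 without PancVAX + Anti-PD-1). For Anti-PD-1 the 2 calls became, in the same order, 0, 10, 6, 76, 0, 1, 0, 0 and 0, and 2 to 5 without 1 pool, and the 0 among S100-high cells became 8 by DESeq2, 1 with RLE size factors and 1 to 27 without 1 pool (PancVAX 1, all 3 agents 9, PancVAX + Anti-PD-1 4, PancVAX + Anti-CTLA-4 27, Anti-PD-1 + Anti-CTLA-4 2, Anti-CTLA-4 2, Anti-PD-1 12, Isotype control 4). For Anti-CTLA-4 the 34 became 16, 1, 0, 160, 6, 3, 0, 0 and 4, and 7 to 48 without 1 pool, and the 16 became 0 with 16 libraries, 4 by DESeq2 and 0 to 33 without 1 pool (PancVAX + Anti-CTLA-4 10, Anti-PD-1 + Anti-CTLA-4 3, Anti-PD-1 25). Preparation had 76 calls with RLE size factors and 91 by DESeq2, but 193 with no filter and 45 to 115 without 1 treatment, and DESeq2 called 75 among S100-high cells. Calls were higher in Percoll for 79.8% of genes, but for 56.0% among S100-high cells and 67.0% by DESeq2. Without the treatment block, 110 genes were called. The interaction had 0 by DESeq2 in both analyses, 11 with no filter and 0 to 5 without 1 pool.

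Among shares, the PancVAX difference in all cells turned to 0.0926 percentage points in whole tumor libraries and was -0.168 to 0.0129 without 1 pool. The Anti-CTLA-4 difference within the gate turned to 0.207 under the study's limits and was -1.89 to 1.44 without 1 pool, and the preparation difference within the gate turned to 0.273 after thinning. The pairs of treatments that share the other agents, added after seeing the data, gave the same differences and called no share for any agent, with 0.125 as the smallest p possible. Of the called genes that the rule for named genes took, none changed direction in the alternatives in which it was fitted. *Myc*, *Plk2* and *Tcim* were not fitted among S100-high cells, where *Myc* was lower in Percoll in 4 treatments and higher in 2. Markers not called did change direction: for PancVAX *Lrg1* and *Asprv1* were at 0.33 and 0.11 over all cells and at -0.12 and -0.18 among S100-high cells, and *Slpi* was at 0.24 and -0.05 for Anti-PD-1 and at -0.01 and 0.02 for Anti-CTLA-4. The difference in mitochondrial share from Siglecf+ cells passed on the log2 scale but not in percentage points, a scale added after seeing the data. Retnlg+ Siglecf- cells had a median of 1328 UMIs, and the filter on low counts left out genes at low levels in all but the alternative without it.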
